A study of Mus musculus with 24 samples.

Results

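The subcortical maternal complex was followed through 8 genes, Nlrp5, Ooep, Tle6, Khdc3, Padi6, Nlrp4f, Nlrp2 and Zbed3, which were chosen by name and make up 8 of the 55471 genes counted. The 18 SLIM-seq libraries, which profile m6A with little starting RNA, came from metaphase II (MII) oocytes, late 1-cell (L1C) embryos and late 2-cell (L2C) embryos, with 3 libraries of RNA captured by an antibody against m6A (IP) and 3 without capture (input) at each stage. The oocytes came from superovulated B6D2F1 (C57BL/6J x DBA/2N) females aged 8 weeks, with cumulus cells taken off by hyaluronidase, and the embryos from such females mated to B6D2F1 males. A further 6 libraries of L2C embryos made up the Ythdc1 knockdown experiment, 3 from zygotes whose cytoplasm was injected with 3 crRNAs against Ythdc1 together with Cas13d mRNA (KD) and 3 from zygotes given Cas13d mRNA alone (Ctrl), so that both groups carried the RNA-guided nuclease. Every library was made from pooled cells, in which fewer cells of a type and less RNA per cell cannot be told apart.

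The complex is an assembly of oocyte proteins that lies under the plasma membrane of the egg and the cleaving embryo, and females that lack a core member produce embryos that stop early in cleavage. Its mRNAs are made while the oocyte grows, stored, and removed as the embryo takes over its own transcription, so they belong to the maternal pool. Binding of m6A readers to them was not measured here. m6A is a methyl group on adenosine inside mRNA, placed most often within words of the form GGAC followed by A, C or T (U in RNA), and Ythdc1 is a nuclear protein that binds it.

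On the GRCm38 genome the members span chr7:23385889-23441922 on the plus strand (Nlrp5), chr7:5298547-5351035 on the minus strand (Nlrp2), chr9:78376109-78378725 on the minus strand (Ooep), chr9:73101836-73104438 on the plus strand (Khdc3), chr13:65177111-65205977 on the minus strand (Nlrp4f), chr13:95323612-95337841 on the plus strand (Zbed3), chr10:81590904-81601073 on the minus strand (Tle6) and chr4:140727355-140742643 on the minus strand (Padi6). In the GENCODE M21 transcript with the longest coding sequence, the GGAC words numbered 17 in Tle6, 15 in Nlrp2, 14 in Nlrp5, 14 in Padi6, 8 in Nlrp4f, 6 in Ooep, 5 in Zbed3 and 1 in Khdc3, beside a median of 10 over the 16062 mRNAs tested in the IP. Per kilobase of transcript, Tle6 held 8.44 words, more than 98.5% of those mRNAs, while Ooep held 2.81 and Khdc3 0.595, against a median of 3.68. The words of Ooep are shown in full below because Ooep was the member most enriched in the IP, those of Tle6 with GGACT inside 1 exon because Tle6 held the most words, and that of Khdc3 because it was its only one. Each run is 5′ to 3′ on the coding strand with the word in capitals and 12 bases on either side.
Ooep 5′ UTR, chr9:78378684-78378712, minus strand: agacctggtagaGGACCtttgttagtgtt
Ooep coding sequence, chr9:78378083-78378111, minus strand: cctgctgacagtGGACTccgtcaactctg
Ooep coding sequence, chr9:78378040-78378068, minus strand: atcaccatctttGGACAacccagtgcaca
Ooep 3′ UTR, chr9:78376529-78376557, minus strand: aggaatggggttGGACAggagaattcact
Ooep 3′ UTR, chr9:78376181-78376209, minus strand: ttagtaacttctGGACAaaattctatgtt
Ooep 3′ UTR, chr9:78376116-78376144, minus strand: cccccaaactcaGGACCacaggctatgag
Tle6 coding sequence, chr10:81595900-81595928, minus strand: ttcctgatccagGGACTctgggaactttt
Tle6 coding sequence, chr10:81593997-81594025, minus strand: tatgggacctacGGACTcaggaaatagtc
Tle6 coding sequence, chr10:81591052-81591080, minus strand: cacaggatccagGGACTgtgcctcggtgt
Khdc3 coding sequence, chr9:73102919-73102947, plus strand: atttggatattcGGACCgccgcctttccg
In Ooep 3 of the words lay in the 3′ UTR, 2 in the coding sequence and 1 in the 5′ UTR, and in Zbed3 2, 2 and 1. The coding sequence held 16 of 17 words in Tle6, 13 of 14 in Padi6, 7 of 8 in Nlrp4f and all words in Nlrp5, Nlrp2 and Khdc3. The RefSeq start of Ooep lies 137 bases from that of GENCODE. The 5′ UTR word of Ooep lies upstream of the RefSeq start, so its place depends on the annotation. A word is a match of letters, not a measured m6A site, and the IP counts are summed over the whole gene. Among the 16062 mRNAs, those with more words tended to have a lower ratio of IP to input. The rank correlation (Spearman) of this ratio with words per kilobase took values of -0.13 in MII oocytes, -0.17 in L1C embryos and -0.28 in L2C embryos. With the number of words the values were -0.27, -0.33 and -0.24 in that order of stages.

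Levels are given as CPM, a count divided by the total of its library and multiplied by 1000000. SLIM-seq library totals ran from 11107421 to 39739950 estimated counts, and those of whole KD libraries from 8696476 to 14500548 counts. The stage labels were checked with known transcripts. Of 26 oocyte transcripts tested, 23 had lost RNA by L2C relative to MII and 2 had gained it, and of 21 transcripts that are switched on at the 2-cell stage 20 were higher and 1 lower, beside 37.1% of all genes lower and 47.5% higher. Of 18 cumulus and granulosa markers, Amh and Foxl2 stood at or below 0.0677 CPM on average in every group, but the summed level rose from 88.9 to 95.9 CPM in MII inputs to 400.3 to 424 CPM in L2C inputs, of which Amhr2 (270.1 CPM) and Nr5a2 (126 CPM) took the most. The other 16 markers, a selection made after seeing the values, summed to 67.6 to 74.0 CPM at MII and 15.1 to 17.4 CPM at L2C. Among these 16, Cyp19a1 was clearly present, at 34.0 CPM in MII inputs, 23.7 CPM in L1C inputs and 1.57 CPM in L2C inputs. Of 13 markers tested from MII to L2C, 9 were lower and 3 higher, beside the 37.1% and 47.5% of all genes. The part of other cells in the results below was not tested.

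In MII oocytes the members spanned a wide range. Per kilobase of merged exons, Zbed3 stood at 21099 ± 401 CPM (SD, n = 3), followed by Nlrp4f at 608 ± 13.4, Padi6 at 536 ± 47.5, Tle6 at 237 ± 14.1, Nlrp5 at 189 ± 19.0, Ooep at 64.3 ± 5.94, Nlrp2 at 34.4 ± 0.929 and Khdc3 at 18.8 ± 3.90 CPM per kb. No neighbours in this order overlapped in their 3 libraries. At L1C the 3 libraries of Padi6 and Tle6, and of Nlrp2 and Khdc3, overlapped, and at L2C those of Padi6 and Nlrp5 and of Khdc3 and Nlrp2 did. The order depended on the length used, because the SLIM-seq counts cover the whole gene span with its introns. By the deposited TPM, which divide by that span, only Zbed3 and Tle6 kept their place at MII, and Ooep, a short gene of 2617 bases, stood at 482 ± 47.0 TPM beside 136 ± 16.5 for Nlrp5, which spans 56034 bases.

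Zbed3, which encodes a BED-type zinc finger protein of the complex, took most of the counts of the members. The 8 genes held 5.27 ± 0.0772% of all counts in MII inputs, and 0.566 ± 0.0201% without Zbed3. In L2C inputs these shares were 0.474 ± 0.0378% and 0.0567 ± 8.37e-04% (SD, n = 3). The exon counts of the KD experiment gave another level for the same stage. There Zbed3 stood at 386 ± 28.3 CPM in Ctrl embryos, beside 4168 ± 370.0 CPM in the L2C inputs. Khdc3 stood at 1.63 ± 0.0619 beside 15.3 ± 0.864 CPM and Tle6 at 42.2 ± 5.36 beside 166 ± 7.28 CPM, while Nlrp2 stood at 26.5 ± 1.10 beside 22.9 ± 3.03 CPM. Ooep went the other way, with 16.5 ± 1.66 CPM in Ctrl embryos beside 6.02 ± 0.562 CPM in the inputs. For the other 3 members the level in the inputs was between 0.716 and 1.91 times that in Ctrl embryos. Of the words of 31 bases in the exons of Zbed3, 20.1% also occur elsewhere in the genome. The exon share was 20.7% for Nlrp5 and 18.0% for Nlrp4f, both of large families, and 6.05% or less for the other 5 members. The SLIM-seq counts cover the whole span with its introns, where the share for Zbed3 was 3.58%. Over the span, Nlrp5 had the highest share, followed by Nlrp2 (20.2%), Nlrp4f (14.2%) and Padi6 (9.08%). The span shares of Ooep (4.79%), Tle6 (4.02%) and Khdc3 (2.95%) were lower. Snora47 and Gm22661, snoRNA genes of 138 and 132 bases, lie inside the Zbed3 span on its strand and read 0 in every SLIM-seq library. How far their reads were counted for Zbed3 was not tested. The part of reads from words found elsewhere, of introns and of the way libraries were made in this gap was not tested either. The levels of Zbed3, Khdc3, Tle6 and Ooep in the SLIM-seq libraries are therefore uncertain.

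Between MII and L1C, before the main wave of zygotic transcription, the members went different ways in the inputs. Padi6, Zbed3 and Nlrp2 fell, Nlrp5 rose, and Ooep, Tle6, Khdc3 and Nlrp4f did not pass the test. That is 3 of 8 lower, beside 24.3% of the 19903 genes tested, and 1 of 8 higher, beside 31.9%. These levels are relative to each library, and the methods of the study describe copying RNA from an oligo-dT primer, which starts at the poly(A) tail. Changes in the number of molecules or in tail length were not tested. Padi6, a member of the peptidylarginine deiminase family that is needed to form the cytoplasmic lattices of the oocyte, stood at 1497, 1290.0 and 1288 CPM in the MII inputs and at 547, 510.5 and 692 CPM in the L1C inputs. The groups did not overlap, and the log2 change was -1.27 ± 0.16 (SE), adjusted p = 1.67e-05. Nlrp2, an NLR family protein with leucine-rich repeats, went from 121, 117 and 124 to 82.9, 65.2 and 57.4 CPM, a log2 change of -0.87 ± 0.15 (SE), adjusted p = 2.16e-04. For Zbed3 the values were 46308, 48055 and 46855 CPM at MII and 22107, 28875 and 29076 CPM at L1C, all lower at L1C, with a log2 change of -0.87 ± 0.13 (SE), adjusted p = 6.39e-05.

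Nlrp5 (Mater), the NLR protein around which the complex was defined, was higher at L1C. Its inputs held 1024, 864 and 864 CPM at MII and 1794, 1460.0 and 1569.6 CPM at L1C, without overlap, a log2 change of 0.76 ± 0.13 (SE), adjusted p = 1.86e-04. Nlrp4f, a further NLR protein of the complex, read 2389.5, 2378 and 2295 CPM at MII and 3785, 3012 and 2544 CPM at L1C. All L1C values were above those at MII but spread widely, and the log2 change of 0.35 ± 0.16 (SE), adjusted p = 0.0742 missed the threshold. Nlrp4f passed, which made 2 of 8 members higher, without L1C input replicate 3 (adjusted p = 0.0300) or L2C input replicate 2 (0.0420), with libraries scaled by size alone (0.0459) and with only the MII and L1C inputs fitted (0.0441). Ooep (Floped), a KH-domain protein of the core, had 145, 123 and 145 CPM at MII and 154, 143 and 176 CPM at L1C, and the groups overlapped (log2 change 0.15 ± 0.13 (SE), adjusted p = 0.334). Tle6, a Groucho family protein of the core, read 681, 750.5 and 761 and then 496, 733 and 699 CPM, with 1 low library at L1C (log2 change -0.24 ± 0.14 (SE), adjusted p = 0.157). Khdc3 (Filia), a KH-domain protein linked to euploid cleavage, read 31.4, 36.8 and 47.1 and 29.3, 47.1 and 39.8 CPM, which overlapped throughout (log2 change -0.042 ± 0.18 (SE), adjusted p = 0.870).

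**Figure D1:**
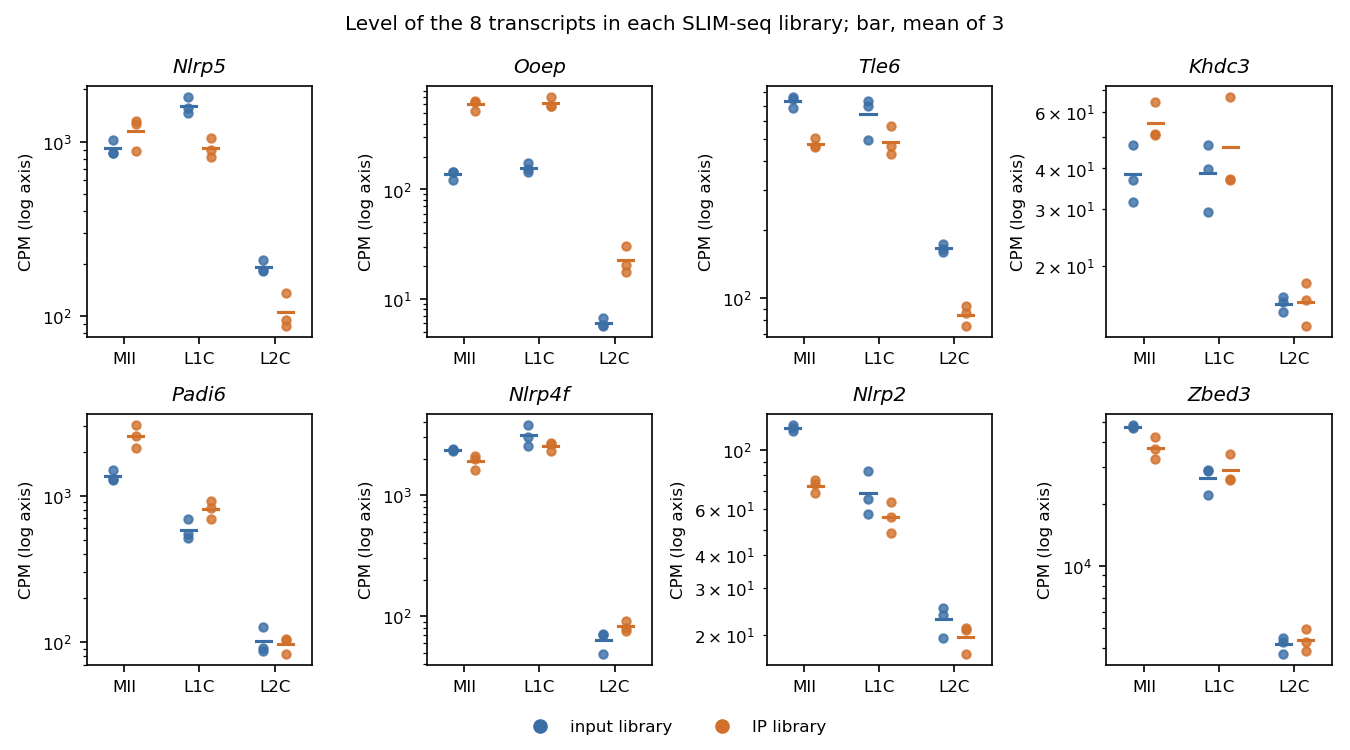
Level of each member in the 18 SLIM-seq libraries, in CPM on a log axis, by stage, with input libraries in blue, IP libraries in orange and the mean of 3 as a bar. The Ooep IP points lie above the input points at every stage, and all members are lower in L2C inputs than in MII inputs.

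From L1C to L2C all 8 members fell, while 38.8% of genes tested fell and 44.1% rose. The median log2 change of the members was -2.69, and that of all genes 0.17. Nlrp4f dropped the furthest, from 3113 ± 627 to 71.3, 49.1 and 69.2 CPM, and was 52.5-fold lower by the fit (log2 change -5.71 ± 0.20 (SE), adjusted p = 5.55e-12). Ooep came down to 5.73, 6.66 and 5.66 CPM, 28.1-fold lower (log2 change -4.81 ± 0.15 (SE), adjusted p = 3.17e-12). A lower log2 value was seen in 0.729% and 1.21% of genes, respectively. Nlrp5, which had risen before, stood at 185, 181 and 209.7 CPM, with a log2 change of -3.16 ± 0.14 (SE), adjusted p = 4.91e-11. Zbed3 fell to 3762, 4485 and 4259 CPM (log2 change -2.77 ± 0.14 (SE), adjusted p = 1.61e-10), and Padi6 to 91.7, 126 and 86.9 CPM (log2 change -2.62 ± 0.17 (SE), adjusted p = 2.63e-09).

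The smallest drops were those of Tle6, Nlrp2 and Khdc3. Tle6 retained 165, 174 and 159 CPM at L2C, with a log2 change of -2.04 ± 0.14 (SE), adjusted p = 6.37e-09. Nlrp2 retained 23.9, 19.5 and 25.3 CPM, with a log2 change of -1.67 ± 0.15 (SE), adjusted p = 1.21e-07. Gm5065, which shares 499 bases with Nlrp2 on the opposite strand, fell as well (log2 change -4.36 ± 0.15 (SE), adjusted p = 4.92e-12), and how far its reads were counted for Nlrp2 was not tested, so the sizes of the Nlrp2 changes between stages are uncertain. Khdc3 retained 14.4, 15.5 and 16.1 CPM, with a log2 change of -1.43 ± 0.19 (SE), adjusted p = 6.65e-06. Khdc3 shares 1969 bases of its strand with Gm20509, which held 4.06, 4.85 and 3.67 CPM in MII inputs and 11.0, 12.8 and 12.1 CPM in L2C inputs. That gene rose from L1C to L2C (log2 change 1.00 ± 0.18 (SE), adjusted p = 1.23e-04), and how far its reads were counted for Khdc3 was not tested, so the size of the Khdc3 drop is uncertain. For each of the 8 genes the highest L2C input lay below the lowest L1C input.

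Over the whole interval from MII to L2C, which shares its libraries with the previous comparisons, all 8 members were again lower, while 37.1% of genes were lower and 47.5% higher. The log2 changes ran from -5.36 for Nlrp4f and -4.66 for Ooep through -3.89 for Padi6 and -3.64 for Zbed3 to -2.54 for Nlrp2, -2.40 for Nlrp5, -2.28 for Tle6 and -1.47 for Khdc3. By this fit, the L2C level of Khdc3 was 36.1% of its MII level, with the uncertainty from Gm20509, and that of Nlrp4f 2.43%.

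**Figure D2:**
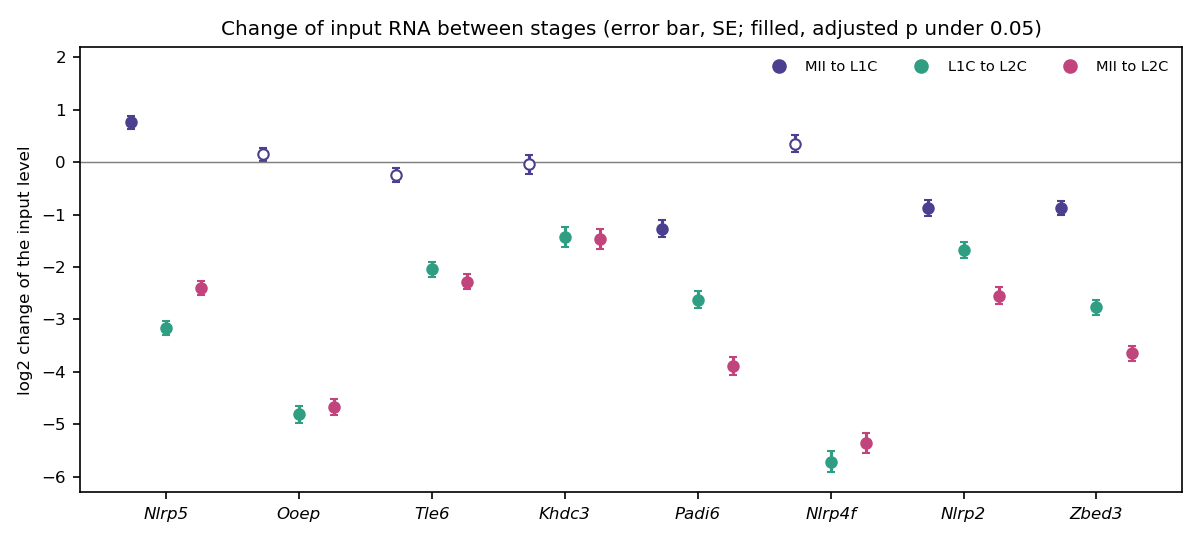
Log2 change of the input level of each member between stages, with the standard error and 3 libraries a stage, filled where the adjusted p is under 0.05. All 8 members lie below 0 from L1C to L2C, from -1.43 for Khdc3 to -5.71 for Nlrp4f, whereas from MII to L1C Nlrp5 lies above 0 at 0.76 and Padi6 below it at -1.27.

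The members did not share 1 time course. The root mean square difference of log2 CPM, each gene centred on its mean over the 9 inputs, was smallest between Padi6 and Zbed3 (0.244), Tle6 and Khdc3 (0.374) and Tle6 and Nlrp2 (0.392), and Ooep was nearest to Nlrp4f (0.492). It was largest between Khdc3 and Nlrp4f (1.98). Against the median course of the 8 members, Zbed3 came closest among them (0.168) and Nlrp4f was farthest (1.32). Among 8280 other protein-coding genes with a mean of at least 10 CPM, the nearest to that median were Csf1 (0.0838), Kcnk18 (0.0923), Mmab (0.100), Prr23a3 (0.101) and Zfp957 (0.110), and 49 such genes were nearer than Zbed3 and 3774 nearer than Nlrp4f.

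The IP separated the members as well. An RNA was called m6A-tagged at a stage with a log2 IP/input above 0, an unadjusted P under 0.05 and a count above 1 in all 3 inputs of the stage, and depleted with a log2 below 0 and an adjusted p under 0.05. Ooep was tagged at all 3 stages and Padi6 at MII alone, which makes 2, 1 and 1 of 8 members at MII, L1C and L2C, beside 19.3%, 18.6% and 23.9% of the 21950 genes tested. Depletion was called for 4, 4 and 3 of 8 members, beside 21%, 18.2% and 22% of genes. Tle6 and Nlrp2 were depleted at every stage, Nlrp4f at MII and L1C, Zbed3 at MII, and Nlrp5 at L1C and L2C. Khdc3 met neither call at any stage in this fit, but it was tagged at MII when libraries were scaled by size alone or when the MII libraries were fitted alone. The IP and input of a stage are separate scales set by the composition of each library, so a log2 IP/input is relative to the bulk of genes and not a share of methylated molecules.

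Ooep had the highest log2 IP/input of the members at every stage. Its MII inputs held 145, 123 and 145 CPM and its MII IPs 649, 634 and 527 CPM, with every IP above every input, and the log2 IP/input was 1.90 ± 0.16 (SE), adjusted p = 1.56e-08. At L1C the IPs held 696, 576 and 581 CPM, for a log2 IP/input of 1.67 ± 0.16 (SE), adjusted p = 1.59e-07. At L2C, where little of the transcript was left, they held 17.5, 30.6 and 20.4 CPM and the log2 IP/input was 1.65 ± 0.17 (SE), adjusted p = 4.43e-07. Ooep stood above 94.1%, 95.3% and 94.8% of genes at these stages. Padi6 was enriched in MII oocytes, with IPs of 2540.5, 3032 and 2101 CPM over inputs of 1497, 1290.0 and 1288 CPM and no overlap (log2 IP/input 0.68 ± 0.17 (SE), adjusted p = 0.00374). Its later IPs of 918, 820.4 and 689 CPM at L1C and 104, 83.5 and 106 CPM at L2C overlapped the inputs, with log2 IP/input of 0.17 ± 0.17 (SE), adjusted p = 0.491 and -0.30 ± 0.17 (SE), adjusted p = 0.168.

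Nlrp2 had the lowest log2 IP/input of the members at MII, Nlrp5 at L1C and Tle6 at L2C. Tle6 had MII IPs of 459.6, 504 and 465 CPM, L1C IPs of 465, 428 and 568 CPM and L2C IPs of 86.5, 75.8 and 92.3 CPM. The log2 IP/input at MII was -0.85 ± 0.14 (SE), adjusted p = 5.76e-05. At L1C it was -0.70 ± 0.14 (SE), adjusted p = 5.76e-04, and at L2C it was -1.22 ± 0.14 (SE), adjusted p = 1.41e-06, and only at L1C did IP and input overlap in CPM. Nlrp5 had IPs of 1316, 880.3 and 1259.6 CPM at MII, which overlapped the inputs (log2 IP/input 0.088 ± 0.16 (SE), adjusted p = 0.739). At L1C its IPs of 1052, 898 and 813 CPM and at L2C those of 88.4, 136 and 95.3 CPM all lay below the inputs, with log2 IP/input of -1.11 ± 0.16 (SE), adjusted p = 3.15e-05 and -1.11 ± 0.17 (SE), adjusted p = 2.74e-05.

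Nlrp2 gave MII IPs of 74.3, 68.5 and 76.9 CPM, L1C IPs of 63.4, 55.6 and 48.7 CPM and L2C IPs of 17.0, 20.9 and 21.1 CPM. Its log2 IP/input was -0.96 ± 0.14 (SE), adjusted p = 1.96e-05, in oocytes, -0.60 ± 0.14 (SE), adjusted p = 0.00252, in L1C embryos, and -0.48 ± 0.15 (SE), adjusted p = 0.0121, in L2C embryos. The IP and input of Nlrp2 overlapped in CPM at L1C and L2C, and the L2C call was lost without L2C input replicate 3 (adjusted p = 0.0638) or L2C IP replicate 1 (adjusted p = 0.0644). Gm5065, on the opposite strand, held 74.8, 75.6 and 76.6 CPM in the MII inputs and was enriched there (log2 IP/input 0.91 ± 0.11), so reads of the shared stretch are uncertain, since the strand setting of the SLIM-seq counts is not given in the sources used here. Nlrp4f read 1972, 1601 and 2120.0 CPM in the MII IPs, 2677, 2640.5 and 2331 in the L1C IPs and 76.0, 91.6 and 80.1 in the L2C IPs, with log2 IP/input of -0.55 ± 0.15 (SE), adjusted p = 0.00799, of -0.59 ± 0.15 (SE), adjusted p = 0.00575 and of 0.12 ± 0.16 (SE), adjusted p = 0.549. Zbed3 was depleted at MII, with IPs of 36903, 42205 and 33096 CPM (log2 IP/input -0.56 ± 0.16 (SE), adjusted p = 0.00679), and gave -0.17 and -0.19 at L1C and L2C without passing. Khdc3 read 64.2, 50.8 and 51.2 CPM in MII IPs, 36.8, 37.0 and 66.3 in L1C IPs and 17.7, 13.1 and 15.7 in L2C IPs, and overlapped the inputs at L1C and L2C (log2 IP/input 0.29, -0.022 and -0.22). Khdc3 shares 1969 bases of its strand with Gm20509, as given above, so its IP counts are also uncertain. When IP and input were scaled by library size alone, the median log2 IP/input of all genes rose to 0.20, 0.37 and 0.34 at MII, L1C and L2C, with Khdc3 then tagged at MII, Padi6 at L1C and Nlrp4f at L2C, and depletion remained called for Tle6 at every stage, for Nlrp5 at L1C and L2C and for Nlrp2 at MII.

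**Figure D3:**
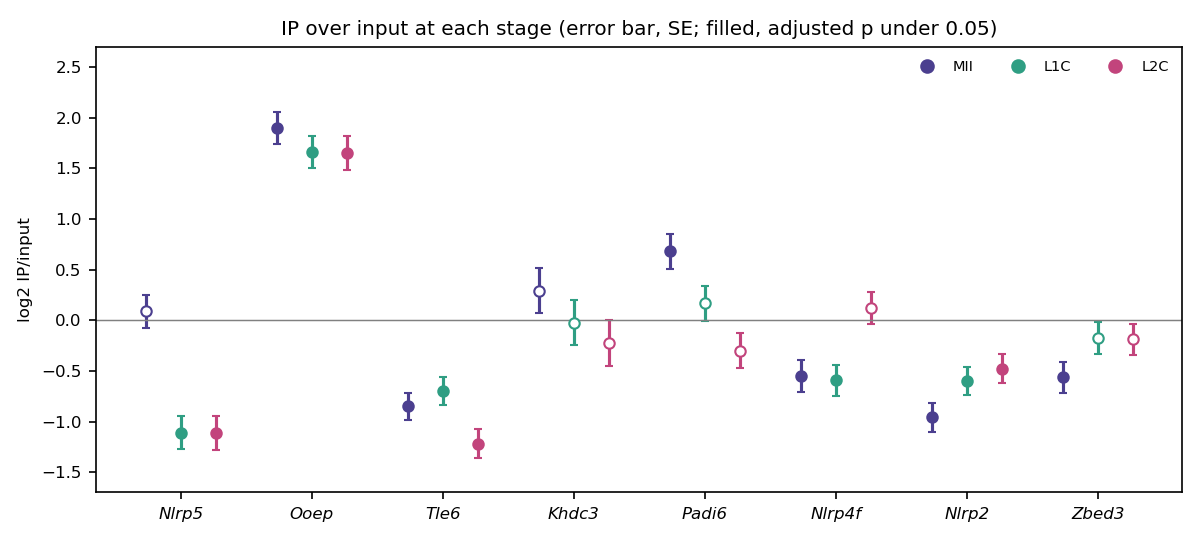
Log2 IP/input of each member at MII, L1C and L2C, with the standard error from 3 IP and 3 input libraries a stage, filled where the adjusted p is under 0.05. Ooep lies between 1.65 and 1.90 at the 3 stages, Tle6 and Nlrp2 lie below 0 at each, and Nlrp5 moves from 0.088 at MII to -1.11 at L1C and L2C.

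Whether the IP enrichment itself moved between stages was tested as the difference of 2 log2 IP/input values. Nlrp5 fell from MII to L1C by 1.20 on the log2 scale (SE 0.23, adjusted p = 0.00243), the only member of 8 to pass in that step, beside 4.21% of genes lower and 3.11% higher. From L1C to L2C only Nlrp4f passed, with a rise of 0.72 ± 0.22 (SE), adjusted p = 0.0469, beside 5% of genes higher and 4.47% lower. That call was lost without any 1 of the MII inputs, MII IP replicate 1 or 3, L1C input replicate 1 or 2, any 1 of the L1C IPs, L2C input replicate 2 or any 1 of the L2C IPs, where the adjusted p lay between 0.0529 and 0.135. It was also lost with a replicate block (adjusted p = 0.0976), with DESeq2 size factors (0.0617), with libraries scaled by size alone (0.0610) and with only the L1C and L2C libraries fitted (0.189), where Tle6 passed in its place (-0.71, adjusted p = 0.0464). From MII to L2C, Nlrp5 (-1.20 ± 0.23 (SE), adjusted p = 0.00104) and Padi6 (-0.98 ± 0.24 (SE), adjusted p = 0.00710) were lower, beside 9.22% of genes, and Nlrp4f was higher (0.67 ± 0.22 (SE), adjusted p = 0.0357), beside 11.1%. The latter call was lost without any 1 of the MII inputs, MII IP replicate 1 or 2, L2C input replicate 2, or L2C IP replicate 2 or 3, where the adjusted p lay between 0.0544 and 0.0978, as well as with a replicate block (0.0604), with DESeq2 size factors (0.0599) and with only the MII and L2C libraries fitted (0.0835), where Tle6 (-0.54, adjusted p = 0.0142) and Khdc3 (-0.69, adjusted p = 0.0320) passed as well as Nlrp5 and Padi6. For Ooep the difference was -0.24 ± 0.22 from MII to L1C and -0.013 ± 0.25 from L1C to L2C, neither of which passed.

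After Ythdc1 KD, Ythdc1 itself read 498, 521 and 493 CPM in the KD libraries and 1114, 1138 and 1048 CPM in the Ctrl libraries, a log2 change of -1.004 ± 0.062 (SE), adjusted p = 1.34e-10, or 2.01-fold lower. These CPM refer to the merged count table, which ends on chromosome 7 and holds Nlrp5, Padi6 and Nlrp2 in 6 libraries. The other 5 members were measured in the 2 KD and 3 Ctrl libraries counted over the whole annotation, as CPM of the whole library. Among the members, 5 fell, Ooep rose, and Padi6 and Khdc3 did not pass. Of the 3 members held by the merged table, Nlrp5 and Nlrp2 (2 members) were lower, beside 37.4% lower and 33.5% higher among the 7433 genes tested. Of the other 5, 3 were lower and 1 higher, beside 36.4% lower and 30.5% higher among 17074 genes.

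Nlrp2 changed the most, from 73.6, 69.6 and 68.1 CPM in Ctrl to 19.6, 28.7 and 20.2 CPM in KD embryos, and was 2.87-fold lower (log2 change -1.52 ± 0.14 (SE), adjusted p = 2.33e-08). Nlrp5 went from 381, 350.3 and 359 to 212, 171 and 196 CPM (log2 change -0.79 ± 0.083 (SE), adjusted p = 1.25e-07). In neither gene did the groups overlap. Padi6 read 142, 139.8 and 142 CPM in Ctrl and 107, 115 and 124 CPM in KD libraries, which lay apart in CPM, but the log2 change of -0.17 ± 0.088 (SE), adjusted p = 0.0914 did not pass. Scaled by library size alone it did (-0.29, adjusted p = 0.00597).

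Ooep stood at 15.9, 15.3 and 18.4 CPM in Ctrl and at 33.0 and 40.5 CPM in KD embryos, 2.35-fold higher (log2 change 1.23 ± 0.13 (SE), adjusted p = 7.52e-07). Ooep was the only member that rose, as read in 2 KD libraries. In the SLIM-seq libraries it was the only member tagged at L2C, where Nlrp4f was tagged as well once libraries were scaled by size alone. A link between the rise and the tag was not tested. Tle6 fell from 39.5, 38.8 and 48.4 to 25.2 and 24.2 CPM (log2 change -0.69 ± 0.12 (SE), adjusted p = 1.13e-04). Nlrp4f fell from 91.4, 93.8 and 79.6 to 57.1 and 49.9 CPM (log2 change -0.65 ± 0.11 (SE), adjusted p = 9.24e-05), and Zbed3 from 363, 379 and 418 to 268 and 275 CPM (log2 change -0.43 ± 0.078 (SE), adjusted p = 1.57e-04). The values of Khdc3 were low, 1.59, 1.70 and 1.61 CPM in Ctrl and 1.33 and 1.67 CPM in KD libraries, from 14 to 23 reads each, and a difference was not detectable at this depth (log2 change -0.056 ± 0.40 (SE), adjusted p = 0.910). Over the 5 libraries with the whole annotation, Nlrp2 and Nlrp5 gave log2 changes of -1.43 and -0.80.

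**Figure D4:**
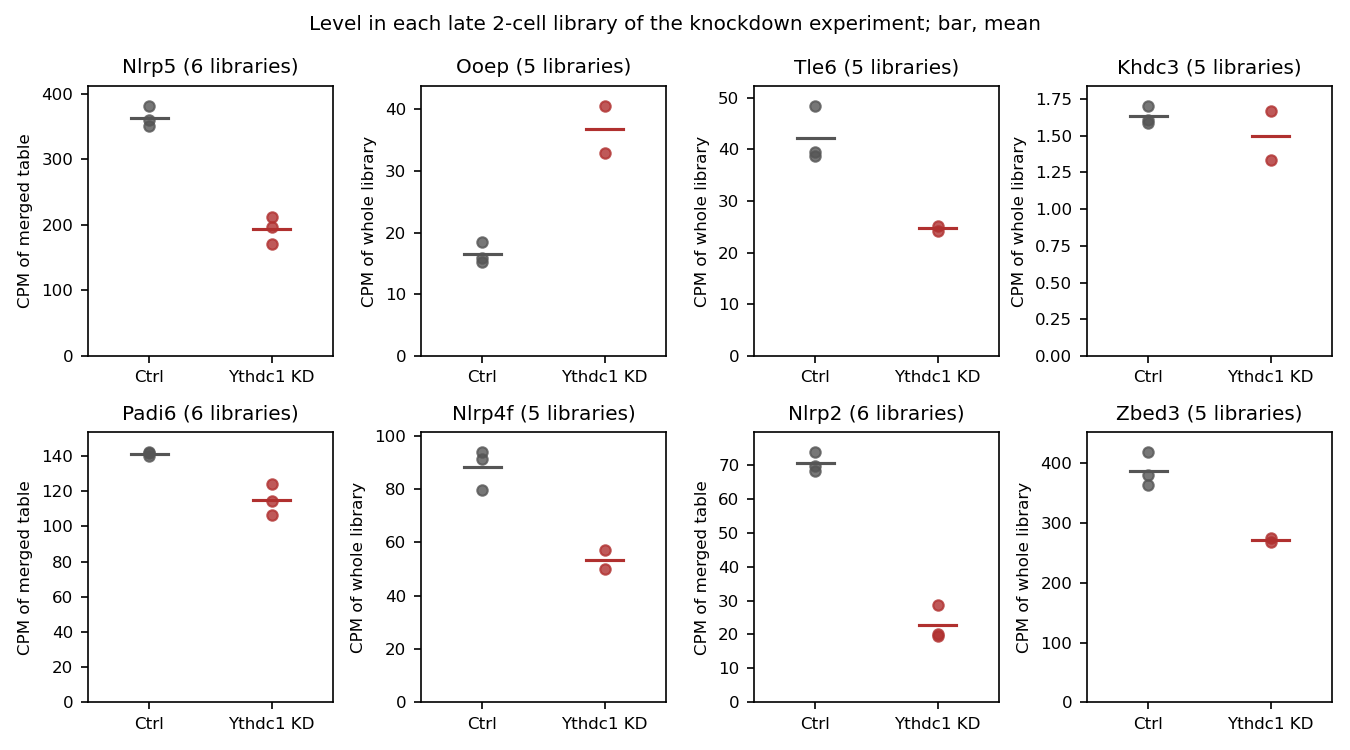
Level of each member in the late 2-cell libraries injected with Cas13d mRNA alone (Ctrl, grey) or with crRNAs against Ythdc1 (red), in CPM from 0, with the mean as a bar. Ooep is higher in the KD libraries, Nlrp2, Nlrp5, Tle6, Nlrp4f and Zbed3 are lower, and the Khdc3 groups overlap.

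Other oocyte and 2-cell transcripts moved in the KD embryos too. Of 24 oocyte transcripts tested over the whole annotation 15 were lower and 4 higher, with a median log2 change of -0.57, and of 20 2-cell transcripts 18 were lower and 1 higher, with a median of -1.59, against 36.4% lower, 30.5% higher and a median of -0.088 over all genes. The summed level of the 2-cell transcripts was 727 to 787 CPM in KD and 2260.0 to 2390.1 CPM in Ctrl libraries. The summed cumulus and granulosa markers were 269 to 270.3 CPM in KD and 164 to 176 CPM in Ctrl libraries, most of it Nr5a2 (223 and 129.8 CPM). Of 6 of these markers tested, Star (log2 change -2.65) and Cyp19a1 (-3.92) were lower. Nr5a2 (0.86) and Amhr2 (0.59) were higher, so 2 of 6 went each way, beside the same shares of all genes. Their part in the changes of the members was not tested.

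Relatives of the members by sequence family, among them the other NLR genes, the Khdc1 genes, the other peptidylarginine deiminases and the Groucho genes, gave 28 genes tested in the inputs. The genes named from this list and the next are those with the smallest P in a direction, not those with the largest change. Between MII and L1C 13 rose, beside 31.9% of all genes, and 0 fell, beside 24.3%, with Khdc1a (log2 change 1.65) and Padi1 (1.86) among those higher. From L1C to L2C 17 fell, beside 38.8% of all genes, and 9 rose, beside 44.1%. The oocyte genes Nlrp4a (-4.88) and Nlrp9b (-4.71) were among the lower ones, and Nlrp12 (6.59) and Dppa5a (4.85), a pluripotency marker close in sequence to Ooep, among the higher ones. In the IP, 3, 2 and 6 of the 28 were higher and 8, 10 and 10 lower at MII, L1C and L2C (adjusted p under 0.05), beside 17.7%, 15.8% and 22% of all genes higher and 21%, 18.2% and 22% lower. Khdc1c had the smallest P among the enriched at each stage (log2 IP/input 2.26 at MII). After KD 14 of 25 were lower, among them Nlrp9a (-0.90), beside 36.4% of all genes over the whole annotation, and 1, Dppa5a, was higher (1.87), beside 30.5%.

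Partners of the complex and of the lattices, 12 genes, were split as well. Between MII and L1C 6 fell and 3 rose, beside 24.3% and 31.9% of all genes, and from L1C to L2C 6 fell and 2 rose, beside 38.8% and 44.1%. Uhrf1, a DNA methylation cofactor, was among the later falls (-3.58), while Axin1, of the Wnt pathway, rose (2.40). In the IP 5, 4 and 3 of 12 were higher at MII, L1C and L2C, beside 17.7%, 15.8% and 22% of all genes, and 2, 3 and 3 were lower, beside 21%, 18.2% and 22%. Dnmt1, the maintenance DNA methyltransferase, was enriched at MII (1.85) and depleted at L2C (-1.80). After KD 7 were lower, among them Nlrp14 (-0.80), which also stands among the relatives, and 2 higher, among them Actg1 (1.01), beside 36.4% and 30.5% of all genes.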

How the data were processed

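Per the labels and the methods of the study, SLIM-seq libraries were quantified by the authors with kallisto, and the deposited estimated counts, with 1 target per gene that spans its introns, are not scaled to library size. The TPM deposited by the authors divide by that span. KD reads were trimmed with Trimmomatic, aligned with HISAT2 and deposited as raw counts on exons from featureCounts 2.0.1 (Ensembl release 99), without strand. KD replicate 3 and the merged table hold 25739 genes, up to a point on chromosome 7.

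Estimated counts were rounded, and all fits used edgeR 4.0.16 in R 4.3.3 (quasi-likelihood test, TMM scaling, the edgeR filter on low counts), with Benjamini-Hochberg adjustment over all genes tested. The 9 inputs were fitted together, as were the 18 SLIM-seq libraries (stage by kind of library) and the KD libraries. DESeq2 1.42.0 was the alternative tool. CPM were computed over all counts of a library, so a fold from TMM-scaled fits can differ from a ratio of CPM. Other alternatives left out each library in turn, or changed the scaling, the filter, the call rule or the libraries fitted. Sequences were read and figures drawn in Python 3.11.15 with matplotlib 3.10.9, and tables used pandas 2.3.3 over numpy 2.4.6. In simulated counts with 100 genes changed by a log2 of 1, the fit recovered 81 for RNA from L1C to L2C and 77 for IP/input at L1C. It recovered 46 for enrichment from MII to L1C, 98 for the merged KD table and 87 for the whole KD annotation. The 200 genes changed in each run were drawn from those above a floor of mean counts, and all other genes kept 1 mean in every group. These rates may not carry over to genes with few counts or to comparisons with many genes called.

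The genes named are the 8 members, Ythdc1, genes that overlap a member, the 5 protein-coding genes with the time course nearest to the median of the members (0.1 CPM added before log2), and from each gene list those with the smallest P in each direction. Members and lists were chosen with earlier results of these data known. Nothing states that replicates came from separate collections, so p-values measure the spread between these libraries, which may be technical. Replicates of a group differed by more than counting noise (chi-square per degree of freedom from 2.67 to 37.1 over 24 pairs).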

Additional observations from a re-analysis of the deposited data

Results flagged for a closer look

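For 3 members the IP/input differed between stages by the test of the difference itself. Nlrp5 was lower by 1.20 on the log2 scale at L1C than at MII (log2 difference -1.20, adjusted p = 0.00243) and again at L2C than at MII (-1.20, adjusted p = 0.00104). Padi6 was lower at L2C than at MII (-0.98, adjusted p = 0.00710). Nlrp4f was higher at L2C than at L1C (0.72, adjusted p = 0.0469) and than at MII (0.67, adjusted p = 0.0357), but both calls were lost with a replicate block (adjusted p = 0.0976 and 0.0604), with DESeq2 size factors, with only the stages compared in the fit and without 1 of several single libraries. The comparisons share their libraries, so these 5 results are not separate evidence. Groups held at most 3 libraries, too few to look for a sample far from the others.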

How the results depend on the processing

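All 80 changes of single members kept their direction where they were called, and 1586 of 1632 values under an alternative stayed on their side of the threshold. No call of RNA change from L1C to L2C or from MII to L2C was lost under any alternative that kept the call rule. Requiring a log2 of more than 1 in size left 1 member changed from MII to L1C (Padi6), 0 depleted at MII, 1 depleted at L1C (Nlrp5), and 0 and 1 with changed enrichment from L1C to L2C and from MII to L2C. The rule of the study for KD (unadjusted P under 0.05 and a log2 of more than 1 in size) called 2 members, Ooep and Nlrp2, in place of 6, beside 22.5% of genes lower and 14.7% higher in the merged table and 24.5% lower and 14.4% higher over the whole annotation. Scaling by library size alone gave 2 members tagged at L1C and 2 at L2C, 2 depleted at MII, 2 depleted at L1C and 0 with changed enrichment from L1C to L2C. It also turned the calls over all genes from 3882 higher and 4599 lower to 5742 and 3566 at MII, from 3463 and 3989 to 6366 and 2614 at L1C, and from 4831 and 4835 to 7302 and 3505 at L2C. For changed enrichment from L1C to L2C, DESeq2 size factors gave 0 members and DESeq2 gave 2, adding Tle6, and leaving out 1 library at a time gave 0 to 1. Fitting only the stages compared called Tle6 in place of Nlrp4f there, and from MII to L2C it called 4 members, with Tle6 and Khdc3 gained and Nlrp4f lost. The deposited TPM left 2 of 8 members at their place in the order at MII. The cause of these shifts was not tested.

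Same-numbered libraries did not deviate together in every pair (r from -0.25 to 0.15 for IP and input, -0.12 to 0.26 for inputs of 2 stages, -0.038 to 0.041 for KD and Ctrl), and no source says that a number marks a batch, so the numbers were not taken as pairs, although the study drew input RNA from the batches used for IP. With a replicate block, 0 members had changed enrichment from L1C to L2C and 2 from MII to L2C, with Nlrp4f lost in both (adjusted p = 0.0976 and 0.0604). The block left 4, 8 and 8 members with changed RNA, and 6 changed after KD.

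Low counts limit Khdc3 after KD.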
